A study of Mus musculus with 11 samples.

Results

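The endosomal Toll-like receptors (TLRs) of splenic classical dendritic cells (cDCs), with the chaperone and the adaptors they need, were followed across 11 arrays. The group was listed by gene name: the receptors Tlr3, Tlr7, Tlr8, Tlr9, Tlr11, Tlr12 and Tlr13, the chaperone Unc93b1, and the adaptors Myd88 and Ticam1. Each gene was read from its one-symbol probe set with the highest mean. Of these 10 genes, 9 were measured in that way, out of 19938 genes in all, and each of the 9 had 1 such probe set. The expression of Tlr11 was not analysed here.

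Expression was measured on whole-transcript Affymetrix arrays of cDCs sorted from spleens of C57BL/6 mice, all of which carried floxed Zeb2 alleles (Zeb2 fl/fl). The groups were CD172a+ cDCs labelled Zeb2-deficient (4 arrays, from mice that also carried CD11c-Cre), CD24+ cDCs of control mice without Cre (3 arrays) and CD172a+ cDCs of the same kind of control mice (4 arrays). The CD11c promoter drives Cre in CD11c-expressing cells, dendritic cells among them, so Cre is not limited to the CD172a+ subset. Cre was present in the labelled Zeb2-deficient group alone, so an effect of the transgene and loss of Zeb2 cannot be told apart. No age, stimulus or infection was given. The labels do not say whether replicates are different mice, so a p-value here covers the spread among these arrays, part of which may be technical.

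TLRs of endosomes read nucleic acids, or proteins of parasites, after these have been taken up by the cell. Tlr3 binds double-stranded RNA, Tlr7 and Tlr8 single-stranded RNA and its breakdown products, Tlr9 unmethylated CpG DNA and Tlr13 a sequence of bacterial ribosomal RNA, while Tlr11 and Tlr12 recognise profilin of Toxoplasma. Unc93b1 carries these receptors out of the endoplasmic reticulum. Tlr3 signals through the adaptor TRIF, encoded by Ticam1, and the other receptors of the group signal through Myd88. In mouse spleen, CD24+ cDCs are the cDC1 subset and CD172a+ cDCs the cDC2 subset.

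RefSeq (GRCm38.p6) gave a promoter window for 8 of the 10 genes. Tlr7 and Unc93b1 had none in the table used. The bases before the start site are printed for Tlr3 and Tlr12, the receptors higher in CD24+ cDCs, and for Tlr9 and Myd88, which did not pass the test between subsets. The 250 bases run 5′ to 3′ on the gene's strand, and capitals mark a match to one of the motifs searched. The windows are chr8:45410381-45410630 (minus strand) for Tlr3, chr4:128618620-128618869 (minus) for Tlr12, chr9:106222348-106222597 (plus) for Tlr9 and chr9:119340019-119340268 (minus) for Myd88. The Tlr3 window belongs to a start site inside the gene's RefSeq span and not at its 5′ end, while the other printed windows adjoin the 5′ end of their gene.
Tlr3: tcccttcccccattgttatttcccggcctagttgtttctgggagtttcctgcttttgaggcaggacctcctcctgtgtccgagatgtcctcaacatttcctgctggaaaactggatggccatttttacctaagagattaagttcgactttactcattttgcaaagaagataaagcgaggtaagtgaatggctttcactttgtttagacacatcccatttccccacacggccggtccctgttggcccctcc
Tlr12: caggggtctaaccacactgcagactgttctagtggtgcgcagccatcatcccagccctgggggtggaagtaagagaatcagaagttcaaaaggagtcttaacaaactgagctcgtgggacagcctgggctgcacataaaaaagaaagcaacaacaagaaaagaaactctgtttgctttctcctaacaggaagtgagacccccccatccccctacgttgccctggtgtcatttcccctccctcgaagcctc
Tlr9: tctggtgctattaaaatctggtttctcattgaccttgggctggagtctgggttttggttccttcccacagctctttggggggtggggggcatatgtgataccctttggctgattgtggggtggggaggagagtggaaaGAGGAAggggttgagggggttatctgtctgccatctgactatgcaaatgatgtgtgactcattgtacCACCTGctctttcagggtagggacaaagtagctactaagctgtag
Myd88: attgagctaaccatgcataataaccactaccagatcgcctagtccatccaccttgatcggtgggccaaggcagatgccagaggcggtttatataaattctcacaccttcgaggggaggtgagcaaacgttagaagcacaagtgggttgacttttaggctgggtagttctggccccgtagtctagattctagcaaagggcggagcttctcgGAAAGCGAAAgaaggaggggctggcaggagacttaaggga

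The motifs were CACCTG, the E-box that Zeb factors bind, the core of the interferon-stimulated response element (ISRE; GAAA, any 2 bases, GAAA) and GAGGAA, a core bound by the myeloid factor PU.1, each searched on both strands of the full window of 300 bases. CACCTG was found in 1 of the 8 windows, that of Tlr9, with its first base at position -45 from the start site. It occurred in 20.2% of all 32851 promoter windows. The ISRE core was found in 2 of the 8, those of Myd88 (position -40) and Tlr11 (position -122), against 3.44% of all windows. GAGGAA was found in 5 of the 8, those of Tlr8, Tlr9, Tlr11, Tlr13 and Ticam1, against 28.3% of all windows. The windows of Tlr3 and Tlr12, as printed above, held none of the 3 motifs. A match is a run of letters and not a measured binding site.

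Zeb2 itself was read first as a check of the labels. Its log2 expression was 8.79 ± 0.44 in CD172a+ cDCs labelled Zeb2-deficient (n = 4), 5.26 ± 0.23 in CD24+ control cDCs (n = 3) and 8.33 ± 0.19 in CD172a+ control cDCs (n = 4; SD throughout). The first group was thus not lower than its control (difference 0.45, exact two-sided permutation p = 0.171), and every direction given for it rests on its label. Whether this probe set reads the floxed exon is not given, so it may check nothing about the deletion. The arrays also fell into a pair of sets along the second principal component (34.2% of the variance), a split that crosses the groups and that no label names. The first set held replicates 1 and 2 of both CD172a+ groups and replicate 1 of the CD24+ group, and the second set held the remaining arrays. The sets were found from the values, so differences between them are described and not tested. For the same reason, p-values from a fit with the array set as a block may be too small. They are given beside those of the fit without a block.

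The sorted subsets carried their defining markers. Of 13 cDC1 markers, 12 were higher and 0 lower in CD24+ than in CD172a+ control cDCs, led by Itgae (log2 difference 3.34) and Xcr1 (5.42). Of 11 measured cDC2 markers, 8 were lower and 1, Clec12a, was higher, led by Sirpa, which encodes CD172a (log2 difference -4.72). In this comparison 3.25% of all genes were called higher and 3.16% lower. These lists were chosen with earlier results of these data known. Cell-type markers bear on Tlr7 and Tlr9 in particular, since plasmacytoid dendritic cells (pDCs), B cells, monocytes and macrophages also express one or both. The pDC marker Siglech read 6.10 ± 0.12 in CD172a+ cDCs labelled Zeb2-deficient, 5.25 ± 0.30 in CD24+ control cDCs and 5.67 ± 0.58 in CD172a+ control cDCs, near the median of all genes (5.53). The B cell marker Cd79a read 3.38 ± 0.53, 3.10 ± 0.23 and 3.31 ± 0.15 in the same order of groups, well under it. Other markers of the same lists were brighter. Bst2, of the pDC list, read 8.36 ± 0.44, 8.66 ± 0.38 and 8.17 ± 0.44, and Ms4a1, of the B cell list, read 8.22 ± 0.49, 6.55 ± 0.59 and 6.20 ± 0.56.

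Among the 9 genes, Tlr3 and Tlr12 were higher and Tlr7 was lower in CD24+ than in CD172a+ control cDCs, and the other 6 did not pass the test. The test was limma on log2 values with Benjamini-Hochberg adjustment over all genes and an adjusted p threshold of 0.05. Over all genes, 3.25% were called higher and 3.16% lower in this comparison. The groups did not overlap for the same 3 members, against 14.6% of all genes. The median log2 difference of the 9 members was 0.20, beside -0.017 over all genes. The comparison asks how the equipment for sensing nucleic acids inside endosomes differs between the main cDC subsets. In bulk samples, fewer cells of a type and less RNA per cell cannot be told apart.

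Tlr3, the receptor for double-stranded RNA, read 10.35, 9.32 and 9.57 in the 3 arrays of CD24+ control cDCs, against 5.73, 6.02, 5.24 and 5.52 in the 4 arrays of CD172a+ control cDCs. Every CD24+ array stood above every CD172a+ array by more than the spread within either group. The difference was 4.12 on the log2 scale (SE 0.233, 95% interval 3.60 to 4.63), a 17.4-fold higher level in CD24+ cDCs (limma adjusted p = 1.52e-06). It was 4.47 within the first array set and 4.07 within the second. The CD172a+ mean of 5.63 ± 0.33 (n = 4) lay close to the median over all genes in that group (5.52). RMA shrinks differences near background, so this fold is not an exact ratio.

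Tlr7, the receptor for single-stranded RNA, had the opposite pattern. It read 3.25, 3.17 and 3.20 in CD24+ control cDCs, against 8.34, 8.34, 8.06 and 8.66 in CD172a+ control cDCs. The CD24+ arrays lay within 0.08 of each other, far under the median of all genes in that group (5.49), so they give no firm level, and the fold is not an exact ratio. The difference was -5.14 (SE 0.151, 95% interval -5.48 to -4.81), a 35.3-fold lower level in CD24+ cDCs (limma adjusted p = 2.28e-08). It was -5.09 within the first array set and -5.18 within the second. Markers of other cell types that express Tlr7 had list means under those of CD172a+ control cDCs or overlapping them. Per array, the 16 measured pDC markers averaged 6.22 to 6.27 in CD24+ control cDCs, against 6.34 to 6.63 in CD172a+ control cDCs (1 called higher, 5 lower). The 11 measured B cell markers averaged 4.99 to 5.16, against 5.30 to 5.63 (1 higher, 2 lower), and the 9 measured monocyte markers 6.69 to 6.96, against 7.32 to 7.94 (0 higher, 2 lower). The 13 splenic macrophage markers averaged 5.04 to 5.54, against 5.42 to 6.74, with 0 higher and 1, Adgre1, lower. With the array set as a block the counts were 4 higher and 5 lower for pDC, 1 and 5 for B cell, 1 and 4 for monocyte and 0 and 4 for macrophage markers. The block also raised the calls over all genes, from 3.25% to 8.55% higher and from 3.16% to 6.9% lower. The part of such cells in the Tlr7 values was not tested.

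Tlr12, a profilin receptor, followed Tlr3 in direction with a smaller difference. It read 7.19, 6.64 and 6.58 in CD24+ control cDCs, against 4.50, 4.69, 5.21 and 4.91 in CD172a+ control cDCs. The CD172a+ mean of 4.83 ± 0.31 (n = 4) was under the median of all genes, and the groups did not overlap. The difference was 1.98 (SE 0.185, 95% interval 1.57 to 2.38), a 3.93-fold higher level in CD24+ cDCs (limma adjusted p = 6.45e-05). As for Tlr3, this fold is not an exact ratio. Within the first array set it was 2.59 and within the second 1.55. For each of Tlr3, Tlr7 and Tlr12 the exact two-sided permutation test gave p = 0.0571, the smallest p that 35 assignments of 3 and 4 arrays allow.

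**Figure D1:**
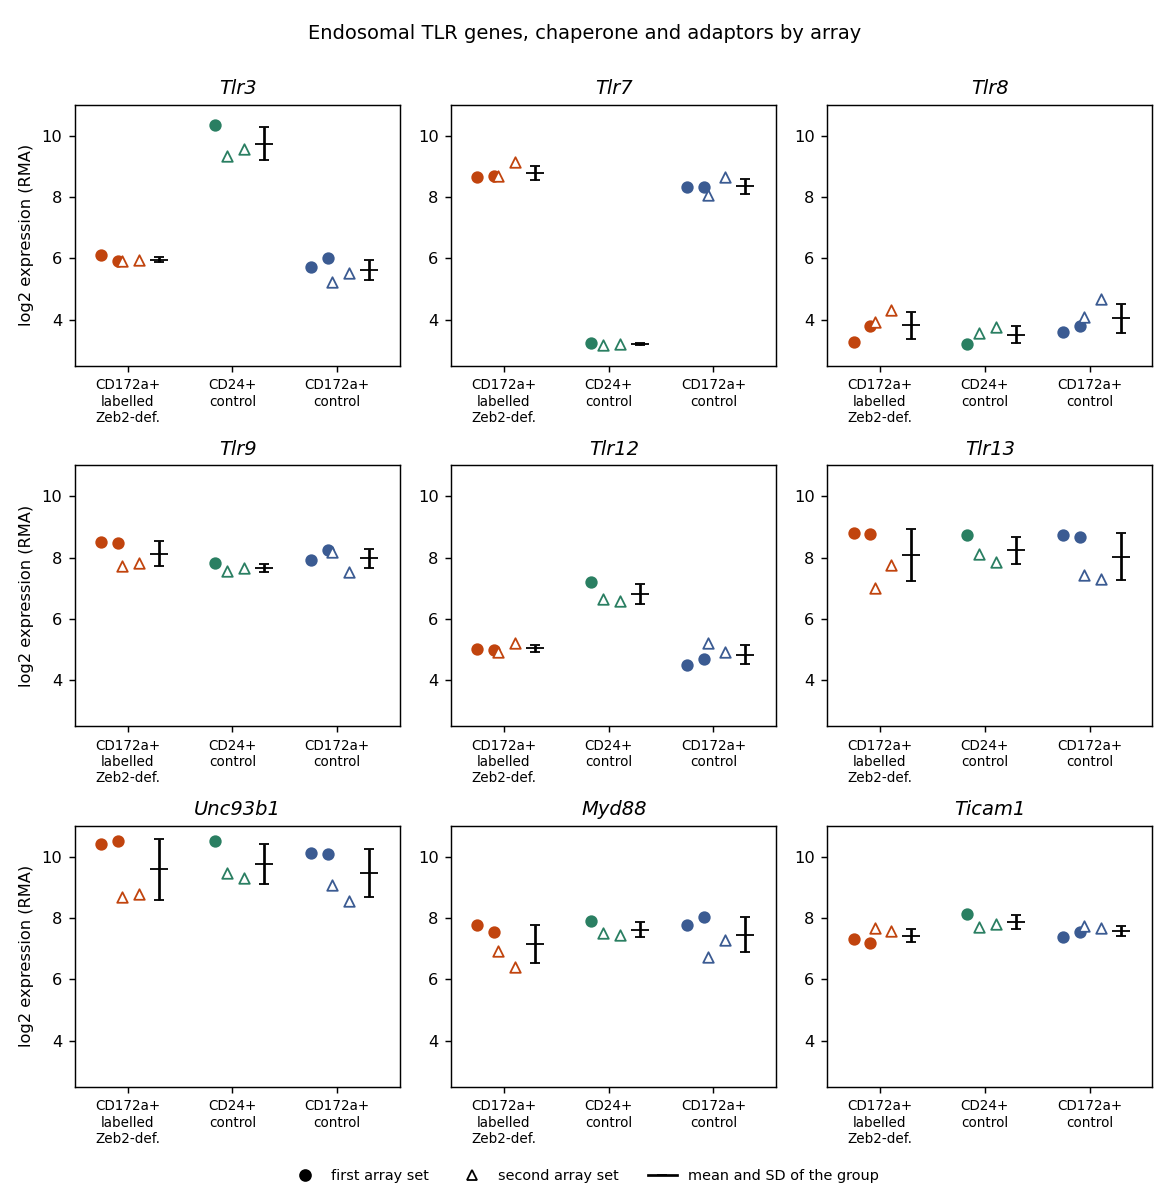
Log2 expression (RMA) of the 9 measured genes in each array, with CD172a+ cDCs labelled Zeb2-deficient (4 arrays), CD24+ control cDCs (3) and CD172a+ control cDCs (4) from left to right. Circles and triangles are the first and second array set and black bars the group mean and SD. Tlr3 and Tlr12 are high in CD24+ cDCs and Tlr7 is high in both CD172a+ groups, while Unc93b1, Tlr13 and Myd88 split by array set within every group.

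Tlr9, the receptor for CpG DNA, read 7.81, 7.55 and 7.67 in CD24+ control cDCs, against 7.93, 8.25, 8.18 and 7.53 in CD172a+ control cDCs. The groups overlapped, and the difference of -0.30 (95% interval -0.80 to 0.20) did not pass (limma adjusted p = 0.66).

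Tlr8 lies next to Tlr7 on the X chromosome, with 0 genes between them in RefSeq, and had far lower readings than the median of all genes in every array. It read 3.21, 3.56 and 3.75 in CD24+ control cDCs, against 3.59, 3.79, 4.10 and 4.68 in CD172a+ control cDCs, and the groups overlapped. The difference of -0.53 (95% interval -1.16 to 0.09) did not pass (limma adjusted p = 0.425). With the array set as a block it was -0.63 and passed (adjusted p = 0.0231), but all of these readings lie in the range where RMA values carry little signal. Tlr7 and Tlr8 were set against their own values in the other subset and not against each other, since different probe sets differ in brightness.

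Tlr13, the receptor for bacterial ribosomal RNA, read 8.72, 8.13 and 7.85 in CD24+ control cDCs, against 8.74, 8.67, 7.43 and 7.30 in CD172a+ control cDCs. The difference of 0.20 had a 95% interval of -0.88 to 1.28, wide because each group held a high and a low cluster of arrays (limma adjusted p = 0.931). With the array set as a block the difference was 0.40 (SE 0.181) and did not pass (adjusted p = 0.185).

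Unc93b1, the chaperone, read 10.51, 9.46 and 9.32 in CD24+ control cDCs, against 10.12, 10.10, 9.09 and 8.56 in CD172a+ control cDCs. Without a block the difference was 0.29 (SE 0.553) and did not pass (limma adjusted p = 0.909). With the array set as a block it was 0.53 (SE 0.149, 95% interval 0.21 to 0.85), a 1.44-fold higher level in CD24+ cDCs that passed (adjusted p = 0.0303). It was 0.40 within the first set, which holds 1 CD24+ array, and 0.57 within the second. With the replicate number as a block instead, it was -0.0078 and did not pass (limma adjusted p = 0.997). That fit sets CD24+ replicate 2, of the second array set, against CD172a+ replicate 2, of the first. It therefore mixes the array sets and is no check of the call. Without a block, leaving out 1 array moved the Unc93b1 difference between -0.077 and 0.52. The call was made only in the fit with the array set as a block. Among all genes the block fit called 8.55% as higher and 6.9% as lower. Of the 9 members it called 5, Tlr8 and Unc93b1 being the additions.

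The adaptors did not pass in either fit. Myd88, which links most TLRs to the IRAK kinases, read 7.90, 7.51 and 7.46 in CD24+ control cDCs, against 7.77, 8.04, 6.74 and 7.29 in CD172a+ control cDCs (difference 0.17, 95% interval -0.61 to 0.94). Ticam1, the adaptor of Tlr3, read 8.13, 7.70 and 7.80 in CD24+ control cDCs, against 7.38, 7.54, 7.73 and 7.67 in CD172a+ control cDCs. Its difference of 0.29 (95% interval -0.03 to 0.62) did not pass (limma adjusted p = 0.391), beside 4.12 for Tlr3. Most of it came from the first array set, which holds 1 CD24+ array, with 0.67 there and 0.05 in the second. The lowest CD24+ array, at 7.70, lay under the highest CD172a+ array, at 7.73.

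**Figure D2:**
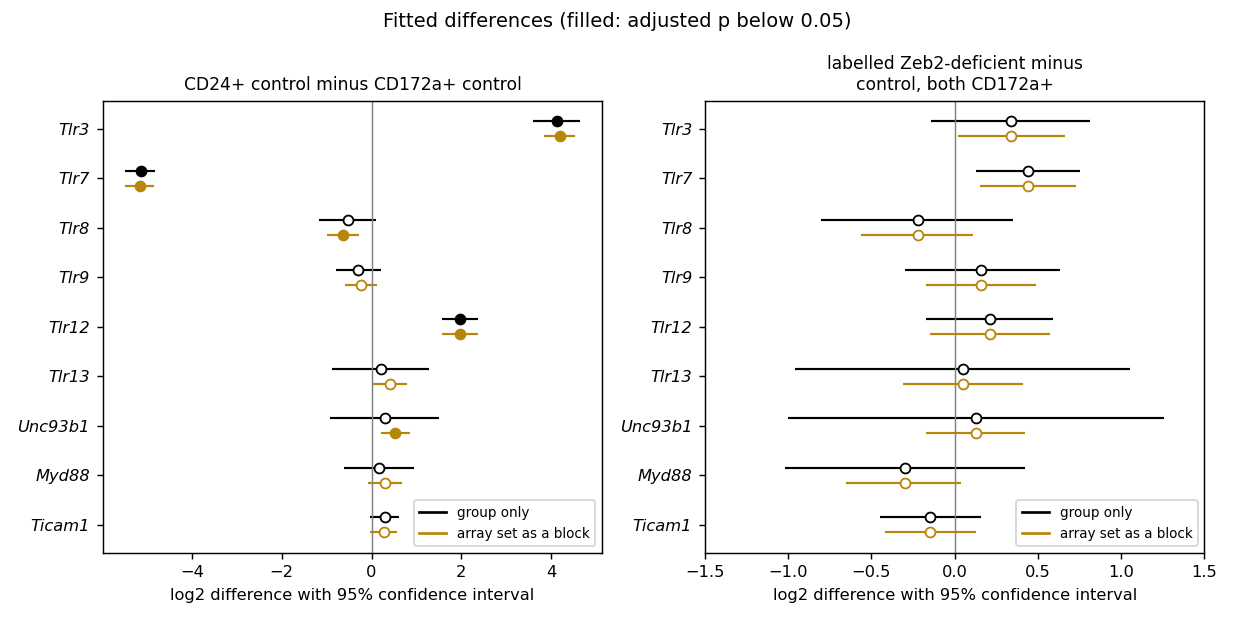
Fitted log2 differences with 95% confidence intervals for the 9 genes, in CD24+ against CD172a+ control cDCs (left) and in CD172a+ cDCs labelled Zeb2-deficient against CD172a+ control cDCs (right, a narrower scale). Black is the fit with group only, ochre the fit with the array set as a block, and filled points have adjusted p below 0.05. Tlr3, Tlr7 and Tlr12 pass on the left in both fits, and no point passes on the right.

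Setting the labelled Zeb2-deficient CD172a+ cDCs against their controls asks which members differ between mice with and without CD11c-Cre. Loss of Zeb2 could not be checked here, so dependence on Zeb2 was not tested. None of the 9 passed (limma adjusted p = 0.998 for each), where 0.0502% of all genes did. In the block fit 0 of 9 passed, with adjusted p between 0.306 and 0.96, where 0.145% of all genes did. At an unadjusted p below 0.05, limma without a block picked 1 of the 9, Tlr7, against 3.88% of all genes. No member had groups that did not overlap, against 2.1% of all genes. The median log2 difference of the 9 members was 0.13, beside 0.006 over all genes.

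Tlr7 read 8.65, 8.69, 8.69 and 9.13 in CD172a+ cDCs labelled Zeb2-deficient, against 8.34, 8.34, 8.06 and 8.66 in CD172a+ control cDCs. The lowest array of the labelled Zeb2-deficient group lay just under the highest control array. The difference was 0.44 (SE 0.14, 95% interval 0.13 to 0.75), with an exact two-sided permutation p of 0.0571, where the smallest possible p over 70 assignments is 0.0286. It was 0.33 within the first array set and 0.55 within the second, and it did not pass with the array set as a block (adjusted p = 0.306). Beside it, the Tlr7-expressing cell types gave mixed values. The 16 measured pDC markers averaged 6.55 to 6.81 per array in the labelled Zeb2-deficient group, against 6.34 to 6.63 in its control, with 1 (Cox6a2) called higher and 0 lower. The 11 measured B cell markers averaged 5.66 to 6.05, against 5.30 to 5.63, with 1 (Fcer2a) called higher and 0 lower, and the 9 measured monocyte markers averaged 6.61 to 7.23, against 7.32 to 7.94, with 0 called higher and 1 (Lyz2) lower. The 13 macrophage markers averaged 5.45 to 6.76, against 5.42 to 6.74, with 0 called. In the block fit, which called 0.145% of all genes, 2 B cell markers were higher and 2 monocyte markers lower. The other counts stood as given. The part of these cell types in the Tlr7 values was not tested.

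Tlr3 read 6.10, 5.91, 5.91 and 5.94 in CD172a+ cDCs labelled Zeb2-deficient, against 5.73, 6.02, 5.24 and 5.52 in CD172a+ control cDCs. The difference was 0.34 (95% interval -0.14 to 0.81). In the block fit the interval was 0.02 to 0.66, and the difference did not pass (limma adjusted p = 0.516). Tlr12 read 5.01, 5.0, 4.92 and 5.21 in the labelled Zeb2-deficient group, against 4.50, 4.69, 5.21 and 4.91 in its control (difference 0.21, interval -0.17 to 0.59). For both genes the groups overlapped, and every array of the labelled Zeb2-deficient group lay below every array of CD24+ control cDCs.

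The remaining members had differences between -0.30 and 0.16. Tlr9 read 8.51, 8.48, 7.72 and 7.82 in CD172a+ cDCs labelled Zeb2-deficient, against 7.93, 8.25, 8.18 and 7.53 in CD172a+ control cDCs, a difference of 0.16 (95% interval -0.30 to 0.63). It was 0.41 within the first array set and -0.08 within the second. Myd88 read 7.76, 7.54, 6.92 and 6.40 in the labelled Zeb2-deficient group, against 7.77, 8.04, 6.74 and 7.29 in its control, a difference of -0.30 (95% interval -1.02 to 0.42).
Ticam1 read 7.33, 7.18, 7.66 and 7.58 in the labelled Zeb2-deficient group, against 7.38, 7.54, 7.73 and 7.67 in its control (difference -0.15, 95% interval -0.45 to 0.16). For Tlr8 the difference was -0.22 (95% interval -0.80 to 0.35). The intervals of Tlr13 (-0.96 to 1.05) and Unc93b1 (-1.0 to 1.26) were the widest. In the block fit they narrowed to -0.31 to 0.41 and -0.17 to 0.42.

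CD172a+ cDCs labelled Zeb2-deficient were also set against CD24+ control cDCs. This comparison shares its arrays with the others and adds no independent result. Tlr7 was higher in the labelled Zeb2-deficient group (log2 difference 5.58), and Tlr3 (-3.78) and Tlr12 (-1.77) were lower. Over all genes, 3.25% were called higher and 3.92% lower. The groups did not overlap for Tlr3, Tlr7, Tlr12 and Ticam1, against 17.9% of all genes. Ticam1 differed by -0.44 (SE 0.149) and did not pass (limma adjusted p = 0.122). With the array set as a block, Myd88 was lower by this test as well (-0.60, adjusted p = 0.03), in a fit that called 7.52% of all genes higher and 10.7% lower. Without a block the Myd88 difference was -0.47 and did not pass (limma adjusted p = 0.565), and the groups overlapped. It was -0.25 within the first array set, which holds 1 CD24+ array, and -0.82 within the second. With the replicate number as a block, which joins arrays of different sets under number 2, it was -0.22 and did not pass.

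Unc93b1, Tlr13 and Myd88 had larger differences between array sets than between the control subsets. Unc93b1 differed (second set minus first) by -1.72 in CD172a+ cDCs labelled Zeb2-deficient, -1.12 in CD24+ control cDCs and -1.28 in CD172a+ control cDCs. Its mean over the groups was -1.37, and 0.918% of all genes had a mean of that size or larger in either direction. Tlr13 had a mean of -1.15 (1.7% of genes as large) and Myd88 one of -0.76 (5.7%). Tlr8 ran the other way, at 0.58 (10.5%), and Tlr9 had a mean of -0.39 (20.3%). Both were also somewhat larger in size than the differences between the control subsets without a block (-0.53 and -0.30). For Tlr7 the mean was 0.07, and the median over all genes was 0.04. No source used here says what the sets stand for.

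**Figure D3:**
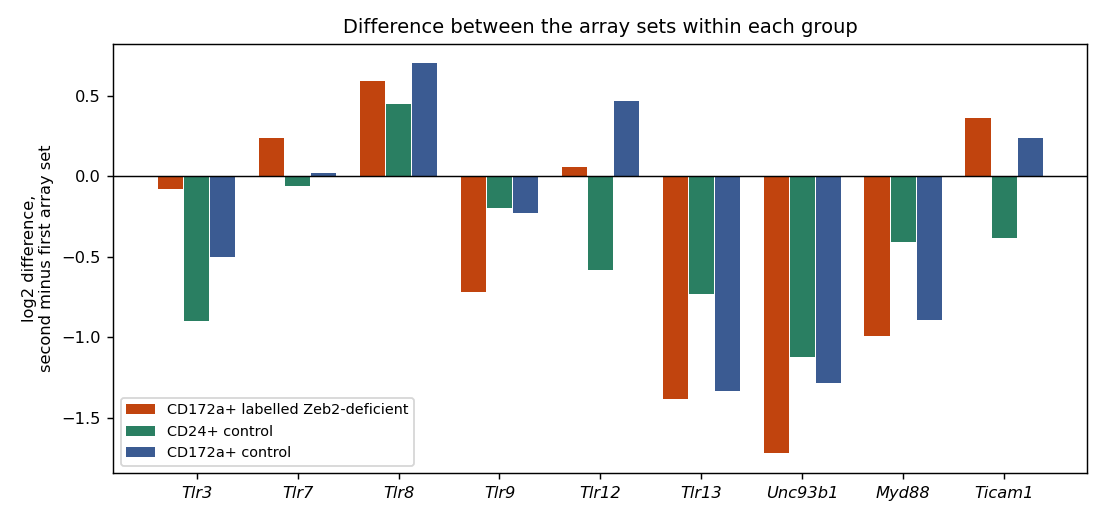
Log2 difference between the array sets (second minus first) within each group, for the 9 genes, with no error bars because a group has 1 or 2 arrays in a set. Bars for Unc93b1, Tlr13 and Myd88 point down in all 3 groups, those of Tlr8 point up in all 3, and those of Tlr7 are short.

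The genes whose pattern over the 11 arrays was most like each member's were ranked by Pearson's r among genes with an SD of at least 0.5, with no test, because arrays share groups and sets. The closest to Tlr3 were Net1 (r = 0.99), Slco3a1 (0.988) and Bst1 (0.987), and the closest to Tlr12 were Pdia5 (0.982), Slc7a8 (0.982) and the cDC1 chemokine receptor gene Xcr1 (0.981). Fyb, Ptchd1 and Dscam stood closest to Tlr7 (0.991 each). Unc93b1 was matched by Slc35c2 (0.992), Clec2d (0.99) and Arhgap30 (0.982), Tlr13 by Sumo2 (0.986), Zmiz1 (0.983) and Notch2 (0.981), and Myd88 less closely by Ndufb3 (0.94), Tmx2 and Mrpl18 (0.936 each). The members that varied least had looser matches. These were Shisa5 (0.93), Ifit2 (0.904) and H2-Oa (0.894) for Tlr9, Clec1b (0.936), AA467197 (0.916) and Ms4a6d (0.912) for Tlr8, and Gramd2 (0.896), Tubb2b (0.895) and Wdfy3 (0.879) for Ticam1.

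The other genes of the pathway were taken by list, and CD24+ control cDCs were set against CD172a+ control cDCs. Of the 111 measured genes on the 9 lists, 21 passed, in a fit that called 3.25% of all genes higher and 3.16% lower. Of 17 genes for chaperones and traffic of endosomal TLRs, 4 were higher, 1 was lower and 12 did not pass. Rab7b, a GTPase that directs TLRs towards lysosomes, averaged 10.52 ± 0.33 in CD24+ control cDCs (n = 3) and 5.40 ± 0.23 in CD172a+ control cDCs (n = 4), a 34.9-fold higher level (limma adjusted p = 2.74e-08). The CD172a+ mean lay under the median of all genes, so the fold is not an exact ratio. Hsp90b1, the endoplasmic reticulum chaperone gp96 that folds TLRs, was higher by 0.95, and Ap3s1 and Ap3d1, subunits of the AP-3 sorting complex, were higher by 0.79 and 0.62. Slc15a4, a lysosomal histidine and peptide transporter needed for Tlr7 and Tlr9 responses, averaged 6.79 ± 0.26 in CD24+ cDCs and 7.80 ± 0.45 in CD172a+ cDCs (difference -1.01, adjusted p = 0.0433).

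Endosomal proteases cut the ectodomains of TLRs, and cystatins inhibit such proteases. Of 8 genes in this list, 1 was higher and 3 were lower in CD24+ than in CD172a+ control cDCs. Cst3, which encodes cystatin C, was higher (1.29), while Cst7, another cystatin (-2.0), Lgmn, the asparagine endopeptidase (-1.46), and Ctsl, cathepsin L (-0.66), were lower. Of 7 measured genes for nucleases and other enzymes acting on TLR ligands, 0 passed in limma, with 2 at an unadjusted p below 0.05. The exonuclease gene Pld3 differed by -0.77 (limma adjusted p = 0.0588) and Dnase2a by -0.44 (adjusted p = 0.0847).

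Downstream of the adaptors, 1 of 21 measured genes for kinases, ligases and linked adaptors was lower and 0 were higher. It was Ticam2, the TRAM adaptor that joins Tlr4 to TRIF, which averaged 5.62 ± 0.71 in CD24+ control cDCs and 7.41 ± 0.47 in CD172a+ control cDCs (difference -1.78, limma adjusted p = 0.0127). Of 12 measured transcription factors of TLR signalling, 2 were higher and 0 lower. Irf8, a factor that cDC1 cells require, was 3.07 higher, and Irf1 was 0.69 higher. Of 14 inhibitors, 0 were higher and 3 lower, namely Tnfaip3 (-0.90), Cyld (-0.77) and Nfkbie (-0.73), which restrain NF-κB signalling. Of 13 measured cytokine genes, 0 passed in limma, with 5 at an unadjusted p below 0.05, Il12b differing by 2.21 (adjusted p = 0.0516) and Tnf by -1.09 (adjusted p = 0.057).

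Outside the endosome, of 8 measured surface TLRs and co-receptors, 0 were higher and 3 were lower in CD24+ than in CD172a+ control cDCs. Tlr1, a partner of Tlr2 in sensing lipopeptides, averaged 6.25 ± 0.51 in CD24+ cDCs and 9.56 ± 0.35 in CD172a+ cDCs (difference -3.31, limma adjusted p = 6.42e-06). Tlr6 (-0.90) and Tlr2 (-0.62) had smaller differences in the same direction. Of 12 cytosolic sensors and adaptors, a list that joins nucleic acid sensors with some of other ligands, 0 were higher and 3 were lower. These were Ddx58, which encodes the RNA sensor RIG-I (-3.18), Ifih1, which encodes the RNA sensor MDA5 (-1.0), and Nod1, a sensor of bacterial peptidoglycan (-2.45). The median differences of these lists were -0.17 and -0.61, beside -0.017 over all genes. Adding the array set as a block raised the calls over all genes to 8.55% higher and 6.9% lower, and it raised those of the lists as well. It called 5 higher and 1 lower of the chaperones and traffic genes, 1 and 4 of the proteases, 0 and 2 of the nucleases, 3 and 1 of the kinases and ligases and 3 and 2 of the transcription factors. It called 0 higher and 5 lower of the inhibitors, 0 and 4 of the surface TLRs, 0 and 7 of the cytosolic sensors and 2 and 2 of the cytokine genes. Whether the lists differ from the 9 members or from each other was not tested.

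**Figure D4:**
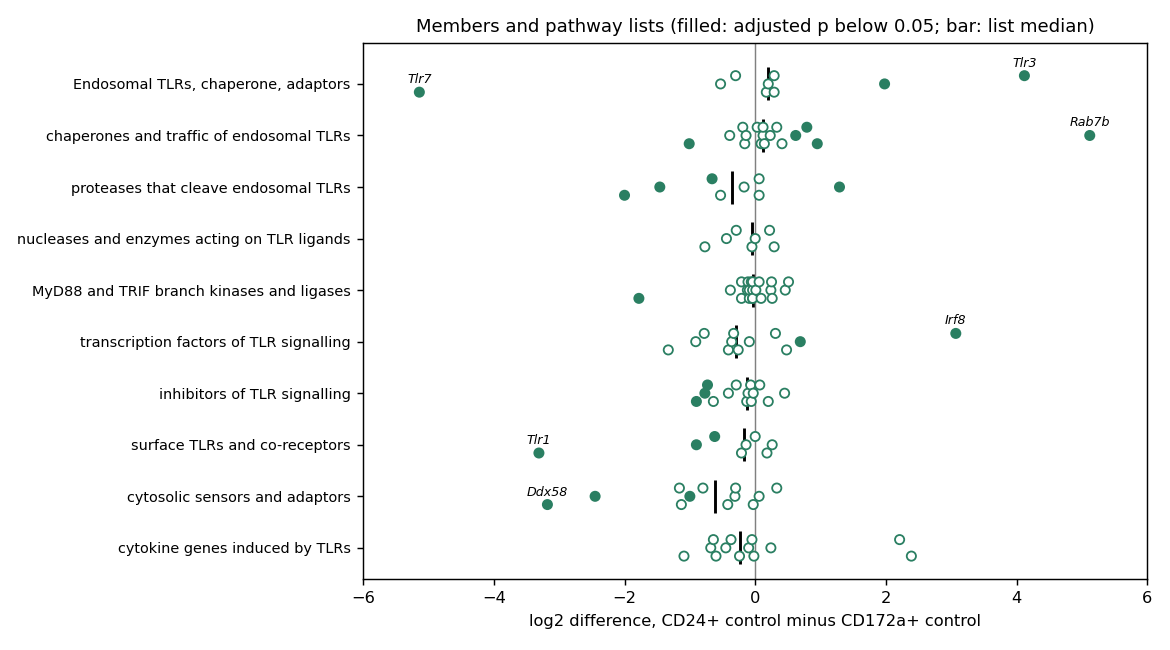
Log2 difference between CD24+ and CD172a+ control cDCs for each measured gene of the endosomal TLR group and of 9 pathway lists, 1 point a gene, filled where adjusted p was below 0.05, with a bar at each list's median. The endosomal TLR group reaches from Tlr7 at -5.14 to Tlr3 at 4.12, Rab7b lies farthest right at 5.12, and the called points of the surface TLRs and the cytosolic sensors lie left of 0.

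In CD172a+ cDCs labelled Zeb2-deficient against CD172a+ control cDCs, 0 of the 111 measured genes of the 9 pathway lists passed in limma, with or without the array set as a block, where 0.0502% and 0.145% of all genes did. At an unadjusted p below 0.05 there were 6, beside 3.88% of all genes. List medians lay between -0.09 and 0.08. Cst7 read 6.46 in the labelled Zeb2-deficient group and 7.26 in its control, a difference of -0.81 that did not pass (limma adjusted p = 0.998). Rab7b read 5.75 in the labelled Zeb2-deficient group and 5.40 in its control, a difference of 0.35 that did not pass.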

How the data were processed

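Classical dendritic cells were sorted from mouse spleen by flow cytometry, and biotin-labelled targets of their RNA were hybridised to 11 arrays, per the labels' protocols. The deposited values are log2 expression per probe set from RMA (named in the submitters' processing notes), which subtracts background, quantile-normalizes arrays and summarises probes. The software version and genome build are not given in the sources used here. Array medians lay between 5.454 and 5.521.

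Of 30177 probe sets, 21789 carried 1 gene symbol in the platform annotation, 1621 several and 6767 none. Each of 19938 genes was represented by its one-symbol probe set with the highest mean. All 11 arrays were fitted with limma 3.58.1 in R 4.3.3, with group as the factor, 8 residual degrees of freedom, two-sided tests and Benjamini-Hochberg adjustment over all genes. The code was tested on simulated data. The number of arrays limits the precision. Exact permutation tests of array labels were run for single genes. The 3 comparisons share arrays. Alternatives were the array set or the replicate number as a block, each array set alone, filters, another probe set rule and leaving out each array.

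Same-numbered arrays of the CD172a+ groups deviated together across genes (r from 0.442 to 0.68 in 4 pairs), as did other-numbered arrays of the same array set (0.496 to 0.699), and the labels name no shared mouse or day. The other comparisons gave r from -0.445 to 0.506 and from -0.361 to 0.592 in 3 pairs each. The negative values came from replicate 2, whose CD24+ and CD172a+ arrays lie in different array sets. Same-numbered pairs within a set gave 0.241 to 0.506 and 0.464 to 0.592. Other-numbered pairs within a set gave 0.323 to 0.582 and 0.381 to 0.569. The numbers were not taken as pairs in these comparisons.

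All members are named. From each pathway list all genes that passed between the control subsets are named, or up to 2 where none passed. Members, lists and array sets were chosen with earlier results of these data known. Figures were drawn with matplotlib 3.10.9.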

Additional observations from a re-analysis of the deposited data

Results flagged for a closer look

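Tlr7 in CD172a+ cDCs labelled Zeb2-deficient had 1 array far from the others, at 9.13 beside 8.65, 8.69 and 8.69. The gap to its neighbour took up more of the group's range than Dixon's 95% critical value allows. Of 18 groups of 4 arrays looked at, this was the only such one, and chance gives about 1 in 20. Without any 1 array, the Tlr7 difference between CD172a+ cDCs labelled Zeb2-deficient and CD172a+ control cDCs lay between 0.33 and 0.54, with limma adjusted p between 0.708 and 1.0.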

How the results depend on the processing

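Between CD24+ and CD172a+ control cDCs, 3 members were called. Adding the array set as a block gave 5, and a filter on dim genes gave 2 of the 7 members it kept, since Tlr8 and Tlr12 were removed. Leaving out each array in turn gave 3 in every case. Between CD172a+ cDCs labelled Zeb2-deficient and CD172a+ control cDCs the count was 0 under every alternative run, and leaving out 1 array gave 0 throughout. Between CD172a+ cDCs labelled Zeb2-deficient and CD24+ control cDCs it was 3, and 3 without any 1 array. It was 4 with the array set block, Myd88 being the addition, and 2 under the filter. Within the first set, which holds 1 CD24+ array, Myd88 differed by -0.25 and Ticam1 by -0.87. With the replicate number as a block the counts were 3, 0 and 3 in these comparisons. Where CD24+ cDCs are compared, that fit joins arrays of different sets under number 2, so it is no test of pairing there. Some differences that did not pass in the fit without a block turned sign. In CD24+ against CD172a+ control cDCs, Tlr13 was -0.045 and Unc93b1 -0.0078 with the replicate block, and Myd88 was -0.003 within the first array set. In CD172a+ cDCs labelled Zeb2-deficient against CD172a+ control cDCs, Tlr9 was -0.084 and Unc93b1 -0.093 within the second array set. Against CD24+ control cDCs, Tlr13 was 0.054 within the first set and Unc93b1 0.1 with the replicate block. Leaving out 1 array moved Tlr13 between -0.04 and 0.43, Unc93b1 between -0.077 and 0.52 and Myd88 between -0.074 and 0.36 in CD24+ against CD172a+ control cDCs. It moved Tlr13 between -0.20 and 0.40 and Unc93b1 between -0.18 and 0.43 in the labelled Zeb2-deficient group against its control, and between -0.39 and 0.20 and between -0.47 and 0.20 against CD24+ control cDCs. In the labelled Zeb2-deficient group against its control, Myd88 lay between -0.54 and -0.051, Tlr8 between -0.39 and -0.0084 and Tlr9 between 0.017 and 0.30. The causes were not tested. Readings under the median of all genes, as for Tlr8, limit what can be said of low levels.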
